A study of Sus scrofa with 16 samples.

Results

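The 36 genes described here code for the enzymes of glycolysis, the carriers of glucose and lactate, and the hypoxia-inducible factors (HIF) with their hydroxylases and target genes. They were chosen by name for these functions, with earlier results of these data known. Of them, 36 of 36 are listed in the count table, which holds 29552 named genes. Their RNA was counted in 16 polyA libraries from cultured valve interstitial cells, which populate the leaflets of the aortic valve and resemble fibroblasts, of male and female pigs of 5 to 6 months. Male gel and female gel cells grew on a PEG-norbornene hydrogel with an elastic modulus of about 5.8 kPa, and the submitters call them quiescent fibroblasts. Male plastic and female plastic cells grew on tissue culture plastic and are called myofibroblasts. Each of these 4 groups had n = 4 biological replicates, and all were kept for 48 hours in Media 199 with 1% fetal bovine serum, penicillin, streptomycin and amphotericin B. The labels name no genetic change or other drug. The surfaces differ in material as well as in stiffness, and the labels give no stiffness for the plastic, no oxygen or glucose level, and no word on whether a replicate is 1 animal or a pool.

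Glycolysis splits glucose into pyruvate, which is either burned in mitochondria or turned into lactate and exported. When oxygen is scarce, prolyl hydroxylases no longer mark the HIF alpha subunits for destruction, and the stabilised factors switch on glycolytic enzymes, glucose carriers, angiogenic factors and the hydroxylases themselves. HIF activity is thus set mainly at the protein level, which RNA counts do not show, and many HIF targets also answer to other signals such as growth factors, fatty acids and glucocorticoids. Valve leaflets are thin and poorly vascularised, and their interstitial cells turn into contractile myofibroblasts on stiff surfaces.

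Levels are CPM, a gene's counts per 1000000 counts of its library, scaled by TMM factors, which correct for differences in library composition. Total counts over named genes ran from 16.9 M to 27.4 M per library (M for 1000000). Male gel 2 was the shallowest library and listed the fewest genes with a count. The 11 valve interstitial and fibroblast markers summed to 40885 to 54974 CPM per library, with 3 higher and 4 lower on plastic in male cells and 1 higher and 5 lower in female cells. COL3A1 was higher and PDGFRA, LUM, DCN and POSTN lower in both sexes, and VIM was not called. The 9 of 9 myofibroblast markers were higher on plastic in each sex. The 10 leukocyte markers summed to 5.76 to 38.5 CPM, highest in female plastic 1. CD3E and CD163 were at 0 in all groups, and PTPRC averaged at most 0.00877 CPM. Of the 3 leukocyte markers tested, LAPTM5 was higher on plastic in each sex (1.53 and 7.88 CPM on male gel and plastic, 3.05 and 13.5 CPM on female gel and plastic), CD14 was lower in each sex and CD68 was not called. The 12 endothelial markers summed to 156 to 287 CPM in gel libraries and 198 to 580 CPM in plastic libraries, highest in female plastic 1 and female plastic 4. Tests were edgeR quasi-likelihood F tests over all 14530 tested genes. A gene is called where its Benjamini-Hochberg adjusted p is under 0.05, and log2 changes are plastic minus gel, with their standard error (SE).

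Some libraries stood apart from their groups in these genes. Male gel 4 was the highest of its group for 26 of 36 members and female gel 4 for 26 of 36, beside 24.5% and 28.4% of all tested genes. In each of these libraries 14 of the 17 enzymes were the highest of the group. At the other end, male gel 2 was the lowest of its group for 20 members and female plastic 4 for 20, beside 39.6% and 32.5% of all genes. Male gel 4 and female gel 4 also had low summed myofibroblast markers, 7517 and 6683 CPM against 12164 to 14004 CPM in 5 of the other gel libraries. Female gel 1 had a similarly low sum of 7521 CPM and was highest of its group for only 4 members. The summed endothelial markers were highest in the same 2 gel libraries, 273 and 287 CPM against 156 to 249 CPM. Female plastic 1 had the lowest myofibroblast sum on plastic, 26149 CPM against 35665 to 45916 CPM, and the highest endothelial sum. The part of these differences in the members' levels was not tested.

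On plastic, 10 of the 36 genes were lower and 3 higher in male cells, and 10 were lower and 2 higher in female cells. The lower calls were 27.8% of the members in each sex, beside 12.9% of all tested genes in male cells and 11.3% in female cells. The higher calls were 8.33% and 5.56% of the members, beside 12.9% and 12.7% of all genes. Male and female comparisons set different libraries against each other. Both use a spread estimated from all 16 libraries, so their calls are not independent. In both, 9 genes were lower (GPI, PFKM, LDHB, ADM, ANGPTL4, EGLN3, NDRG1, DDIT4 and EPAS1), which is 25% of the members beside 7.27% of all genes. HK1 and PDK1 were higher in both sexes, where 9.24% of all genes were. With all 4 plastic libraries on one side of all 4 gel libraries, 7 members were lower and 4 higher in male cells and 13 lower and 2 higher in female cells, beside 14% and 14.8% of all genes in male and 14% and 13.7% in female cells. The 4 higher in male cells include PFKP, whose sign depends on the scale. The median log2 change of the members was -0.19 in male and -0.20 in female cells, beside -0.03 and -0.04 for all tested genes. In bulk libraries, less RNA per cell and fewer cells that carry it cannot be told apart. With male gel 4 and female gel 4 left out together, 9 members were lower and 3 higher in male cells and 10 lower and 3 higher in female cells. With male gel 2 and female plastic 4 left out together, these counts were 11 and 3 in male and 10 and 2 in female cells.

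The scale matters for the mild changes. Plastic libraries had TMM factors of 0.896 to 0.984 and gel libraries of 1.05 to 1.12, and the 50 genes with the most counts took 27.5% to 30.6% of the counts on plastic and 20.7% to 24.0% on gel. With plain total counts as the scale, the median of all genes moved to -0.27 in male and -0.28 in female cells. On that scale 22 members were lower and 3 higher in male cells, and 18 lower and 2 higher in female cells, beside 33.1% and 29.8% of all genes lower and 7.85% and 7.38% higher. In each sex 7 uncalled members changed sign with that scale: HK2, PFKP, PGK1 and SLC2A1 in both sexes, ALDOC, SLC16A3 and EGLN1 in male cells, and PFKFB4, SLC16A1 and HIF1A in female cells. A direction given for these in the sex named holds for TMM scaling only.

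**Figure D1:**
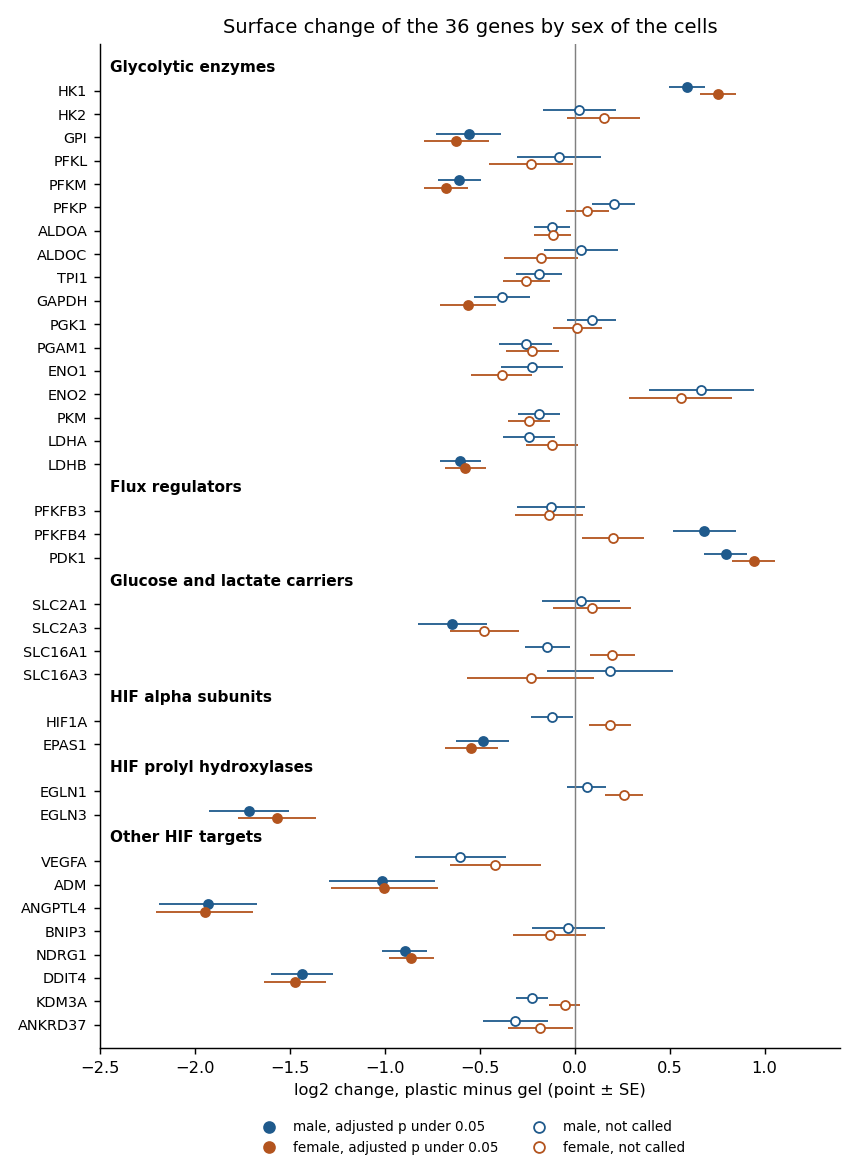
Log2 change between plastic and gel (x axis, point ± SE) of the 36 genes (y axis, by role) in male (blue) and female (orange) cells, filled where the adjusted p was under 0.05. ANGPTL4 and EGLN3 lie farthest to the left in each sex, and PDK1 and HK1 are filled to the right of 0 in each sex.

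HIF1A and EPAS1 encode the alpha subunits HIF-1 alpha and HIF-2 alpha. In male cells HIF1A stood at 664, 848, 603 and 765 CPM in gel 1 to 4 and at 725, 669, 654 and 600.1 CPM in plastic 1 to 4, an order kept for every gene below. Female cells had 544, 583, 618 and 691 CPM of HIF1A on gel and 634, 694, 757 and 689 CPM on plastic. The groups overlapped in each sex, and HIF1A was not called, with -0.12 (SE 0.11, adjusted p = 0.468) in male and 0.19 (SE 0.11, adjusted p = 0.25) in female cells. EPAS1 stood at 358, 238, 334 and 333 CPM on gel and 196, 225, 270.1 and 212 CPM on plastic in male cells, where male gel 2 lay inside the plastic range. In female cells EPAS1 had 315, 377, 299 and 365 CPM on gel and 262, 254, 196 and 218 CPM on plastic, with no overlap. EPAS1 (chromosome 3, 94167759 to 94253662) fell, with log2 changes of -0.48 (SE 0.14, adjusted p = 0.0177) in male and -0.54 (SE 0.14, adjusted p = 0.0092) in female cells, to 71.5% and 68.6% of the gel mean. In male cells EPAS1 missed the threshold when male gel 1 (adjusted p = 0.0526), male plastic 1 (0.0628) or male plastic 4 (0.0516) was left out.

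Of the prolyl hydroxylases, which tag the HIF alpha subunits for degradation, EGLN3 fell in each sex and EGLN1 was not called. EGLN3 is itself a HIF target. Male cells had 28.2, 25.6, 18.7 and 40.2 CPM of EGLN3 on gel and 8.71, 8.05, 8.25 and 9.26 CPM on plastic. In female cells EGLN3 stood at 42.8, 28.6, 25.2 and 34.1 CPM on gel and 13.7, 10.3, 10.6 and 9.41 CPM on plastic. The lowest gel library of either sex was above the highest plastic library. EGLN3 (chromosome 7, 65805513 to 65833536) fell to 30.4% of the gel mean in male cells and 33.7% in female cells, log2 changes of -1.71 (SE 0.21, adjusted p = 1.96e-05) and -1.57 (SE 0.21, adjusted p = 4.41e-05). EGLN1 had 66.8 ± 6.42 CPM on gel and 69.7 ± 2.37 CPM on plastic in male cells (mean ± SD, n = 4, as for all such pairs below), and 64.6 ± 6.53 and 77.3 ± 9.37 CPM in female cells. The changes of EGLN1 were 0.06 (SE 0.10, adjusted p = 0.694) and 0.26 (SE 0.10, adjusted p = 0.0734). In female cells EGLN1 was called as higher when blocked on the replicate number (0.26, adjusted p = 0.0408), by DESeq2 (0.29, adjusted p = 0.0416), without female gel 4 (0.33, adjusted p = 0.0365) and without female plastic 1 (0.31, adjusted p = 0.048). The female change was smaller and not called without female plastic 4 (0.17, adjusted p = 0.238) and with total counts as the scale (0.01, adjusted p = 0.938).

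Of the 8 other genes grouped here as HIF targets, 4 fell in each sex: ANGPTL4, DDIT4, NDRG1 and ADM. That is 50% of the 8, beside 12.9% of all genes lower in male and 11.3% in female cells. Further HIF targets are given below among the enzymes, regulators and carriers. Of those named as HIF targets there, PDK1 was higher in each sex, and HK2, PGK1, LDHA, SLC2A1 and SLC16A3 were not called. The remaining enzymes, regulators and carriers were not sorted by whether they are HIF targets. Among them, GPI, PFKM and LDHB were lower and HK1 higher in each sex. SLC2A3 was lower and PFKFB4 higher in male cells alone, and GAPDH was lower in female cells alone. ANGPTL4, a secreted inhibitor of lipoprotein lipase that fatty acid sensing receptors of the PPAR family also induce, fell the most of all 36 genes. It stood at 46.8, 30.6, 31 and 50.7 CPM on gel and 11.6, 9.41, 9.05 and 11.7 CPM on plastic in male cells. Female cells had 67.4, 40.1, 38.6 and 50.7 CPM of ANGPTL4 on gel and 20.5, 8.93, 11 and 10.5 CPM on plastic. All 8 plastic libraries lay below all 8 gel libraries, and female gel 1 and female plastic 1 were the highest of their groups. The log2 changes of ANGPTL4 (chromosome 2, 70905767 to 70912892) were -1.93 (SE 0.26, adjusted p = 4.51e-05) and -1.95 (SE 0.26, adjusted p = 4.31e-05), which left 26.2% and 25.9% of the gel mean.

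DDIT4, a stress-induced inhibitor of the growth kinase complex mTORC1, stood at 246, 159.9, 161 and 217 CPM on gel and 75.3, 74.1, 68.8 and 71.8 CPM on plastic in male cells. In female cells DDIT4 had 230.2, 239, 178 and 193 CPM on gel and 97.1, 79.1, 67.7 and 59 CPM on plastic. Again no plastic library reached a gel library, and the male plastic libraries lay close together. DDIT4 (chromosome 14, 75117708 to 75119907) fell to 36.9% and 36% of the gel mean, with -1.44 (SE 0.16, adjusted p = 9.66e-06) in male and -1.47 (SE 0.16, adjusted p = 7.95e-06) in female cells. NDRG1, a differentiation gene strongly induced by hypoxia in many cells, stood at 175, 151, 145 and 197 CPM on gel and 85.4, 83.5, 89.3 and 100.3 CPM on plastic in male cells. Female cells had 192, 182, 148 and 205 CPM of NDRG1 on gel and 108, 95.9, 88.2 and 109 CPM on plastic. The surfaces did not overlap, and NDRG1 (chromosome 4, 8014445 to 8069335) fell with log2 changes of -0.90 (SE 0.12, adjusted p = 4.74e-05) and -0.86 (SE 0.12, adjusted p = 7.69e-05). ADM, the vasodilator adrenomedullin, had 58.1, 54, 90.4 and 34.7 CPM on gel and 28.3, 33, 35.4 and 20.9 CPM on plastic in male cells, where gel 4 lay below plastic 3. In female cells ADM stood at 45.8, 55.2, 69.9 and 40.1 CPM on gel and 20.3, 29.2, 37.9 and 17.9 CPM on plastic. Within each of the 8 same-numbered pairs of libraries ADM was lower on plastic, to 49.5% and 49.9% of the gel mean, with -1.01 (SE 0.28, adjusted p = 0.0136) and -1.002 (SE 0.28, adjusted p = 0.0154). The ADM call was lost in male cells without male gel 3 (-0.74, adjusted p = 0.0562), and in female cells without female gel 3 (-0.84, adjusted p = 0.0567) or female plastic 4 (-0.86, adjusted p = 0.0519). When blocked on the replicate number, edgeR gave ADM -0.96 (adjusted p = 8.46e-05) in male and -1.03 (adjusted p = 5.56e-05) in female cells.

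The other 4 of these 8 targets were not called in either sex. VEGFA, the main angiogenic growth factor, stood at 263, 194, 177 and 369.7 CPM on gel and 179, 142, 163 and 177 CPM on plastic in male cells. Female cells had 184, 227, 208 and 427 CPM of VEGFA on gel and 204, 186, 188 and 205 CPM on plastic. Male gel 4 and female gel 4 were the highest of their groups, while the plastic libraries lay close together. The log2 changes of VEGFA were -0.60 (SE 0.24, adjusted p = 0.0784) in male and -0.42 (SE 0.24, adjusted p = 0.232) in female cells. In male cells VEGFA was called as lower when blocked on the replicate number (-0.55, adjusted p = 0.0401), without male gel 3 (-0.74, adjusted p = 0.0412) and without female gel 4 (-0.60, adjusted p = 0.0222), which enters only the shared spread. With male gel 4 and female gel 4 left out together, VEGFA had -0.35 (adjusted p = 0.0662) in male and -0.08 (adjusted p = 0.731) in female cells. BNIP3, a mitophagy receptor, had 124 ± 38.3 and 121 ± 13.7 CPM on male gel and plastic and 139 ± 26.4 and 127 ± 23.1 CPM on female gel and plastic, changes of -0.03 (SE 0.19) and -0.13 (SE 0.19). KDM3A, a histone demethylase that needs oxygen, had -0.22 (SE 0.08, adjusted p = 0.0574) and -0.05 (SE 0.08, adjusted p = 0.688). Without male gel 3 the male value of KDM3A was -0.29 and called (adjusted p = 0.0174). ANKRD37, a small ankyrin repeat protein, had -0.31 (SE 0.17, adjusted p = 0.199) and -0.18 (SE 0.17, adjusted p = 0.486), at levels of 5.42 to 8.45 CPM in male plastic and 6.27 to 10.01 CPM in male gel libraries.

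**Figure D2:**
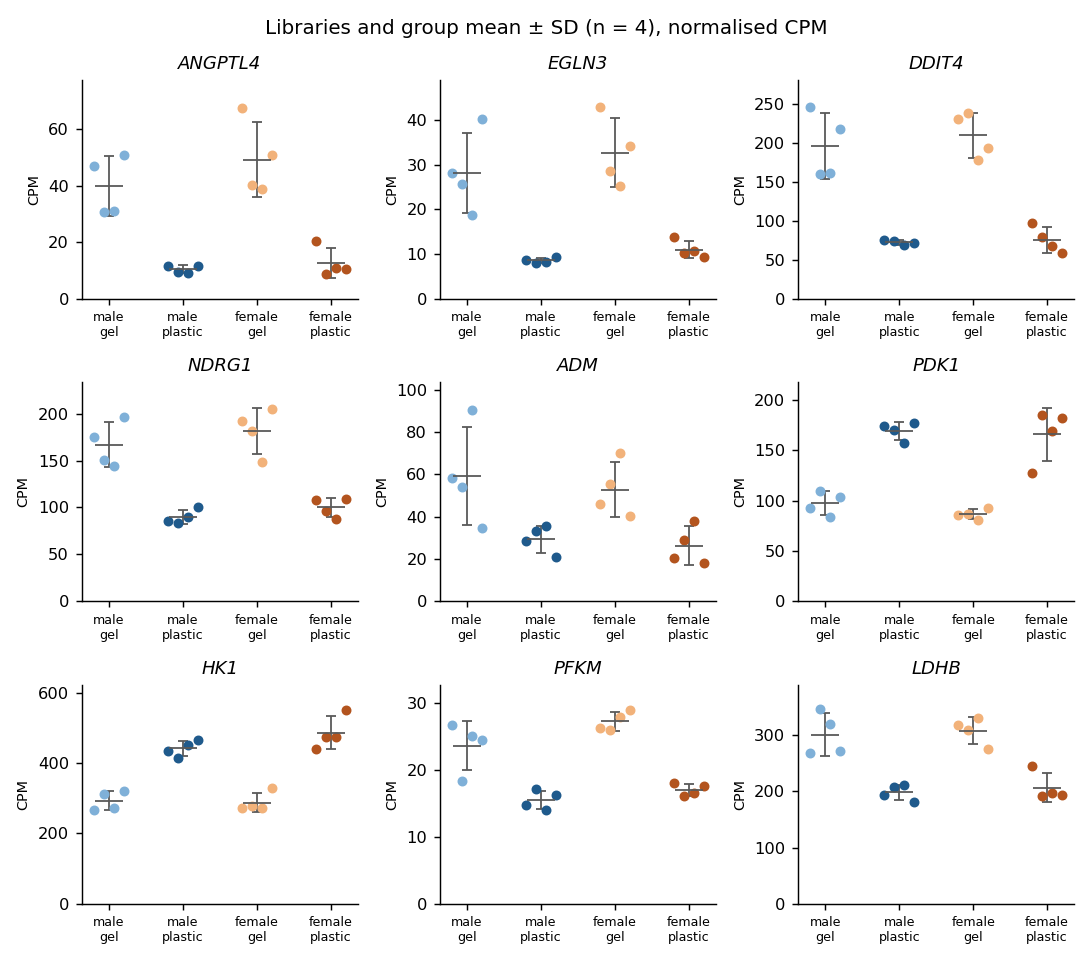
CPM (y axis, from 0) of 9 genes in each library (points, replicates 1 to 4 from left to right) with the group mean and SD (grey, n = 4). ANGPTL4, EGLN3, DDIT4 and NDRG1 are lower on plastic than on gel with no overlap in either sex, PDK1 and HK1 are higher with no overlap, and ADM overlaps between surfaces in male cells.

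Among the 17 glycolytic enzymes, 1 rose and 3 fell in male cells, and 1 rose and 4 fell in female cells. The falls were 17.6% and 23.5% of the enzymes and the rises 5.88% in each sex, beside 12.9% and 11.3% of all genes lower and 12.9% and 12.7% higher. The 17 enzymes summed to 8071 ± 1377 CPM on male gel, 7084 ± 261 CPM on male plastic, 8774 ± 1045 CPM on female gel and 7402 ± 543 CPM on female plastic. The gel libraries covered 6687 to 10336 CPM and the plastic libraries 6631 to 7883 CPM, and the surfaces overlapped in male cells through male gel 2 but not in female cells. The enzymes are given below in the order in which they act.

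Hexokinases trap glucose in the cell as glucose 6-phosphate. HK1, the broadly expressed form, stood at 268, 312, 273 and 320.1 CPM on gel and 435, 415, 451 and 465 CPM on plastic in male cells. Female cells had 271, 279, 271 and 329 CPM of HK1 on gel and 441, 476, 475 and 552 CPM on plastic. Every plastic library was above every gel library. HK1 (chromosome 14, 72383328 to 72460927) rose to 151% and 169% of the gel mean, with 0.59 (SE 0.10, adjusted p = 0.00028) and 0.76 (SE 0.10, adjusted p = 3.34e-05). HK2, the inducible form and a HIF target, overlapped between surfaces and was not called, with 0.03 (SE 0.19) and 0.15 (SE 0.19) and means of 35.8 to 39.8 CPM over the 4 groups. GPI, which turns glucose 6-phosphate into fructose 6-phosphate, fell from 212 ± 58.3 to 144 ± 10.9 CPM in male and from 240.2 ± 41.4 to 156 ± 22.3 CPM in female cells. Its changes were -0.56 (SE 0.17, adjusted p = 0.0248) and -0.62 (SE 0.17, adjusted p = 0.0142), with overlap in male cells through male gel 2. In male cells GPI missed the threshold when male gel 1 or 4 or male plastic 1, 2 or 3 was left out (adjusted p from 0.056 to 0.0903, with -0.40 without male gel 4), and in female cells when female gel 4 was (adjusted p = 0.0543).

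Phosphofructokinase commits the sugar to glycolysis and is built from muscle (PFKM), liver (PFKL) and platelet (PFKP) type subunits. Male cells had 26.7, 18.3, 25.1 and 24.4 CPM of PFKM on gel and 14.7, 17.1, 14.1 and 16.2 CPM on plastic. In female cells PFKM stood at 26.2, 26, 27.9 and 29 CPM on gel and 18, 16, 16.6 and 17.5 CPM on plastic. PFKM (chromosome 5, 78475473 to 78525052) fell with no overlap in either sex, with log2 changes of -0.61 (SE 0.11, adjusted p = 0.000909) and -0.68 (SE 0.11, adjusted p = 0.000372). PFKL was not called, with changes of -0.08 (SE 0.22) and -0.23 (SE 0.22), and within male gel it ran from 53 to 125 CPM with male gel 2 the lowest. PFKP was not called either, with 0.20 (SE 0.11) and 0.07 (SE 0.11), although the male surfaces did not overlap, with 78.8 to 119 CPM on gel and 119 to 125 CPM on plastic. Aldolase, which cleaves the sugar, was not called in its ALDOA form (744 ± 101 to 685 ± 13.5 CPM in male and 790.4 ± 68.6 to 729 ± 20.3 CPM in female cells). ALDOC, its brain-type form, had 13.9 to 24.8 CPM on male gel and 14.9 to 27.7 CPM on female gel, with changes of 0.03 (SE 0.20) and -0.18 (SE 0.20). TPI1, which interconverts the resulting triose phosphates, had 329 ± 54.4 and 289 ± 15.8 CPM on male gel and plastic and 358 ± 60.7 and 299.8 ± 17.6 CPM on female gel and plastic. Its changes were -0.19 (SE 0.12, adjusted p = 0.284) and -0.26 (SE 0.12, adjusted p = 0.151), not called, though all 4 female plastic libraries lay below all 4 female gel libraries.

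GAPDH, which oxidises the triose and is often used as a reference gene, stood at 1414, 975, 1292 and 1656 CPM on gel and 1095, 983, 1003 and 1014 CPM on plastic in male cells. Female cells had 1449, 1400, 1432 and 1774 CPM of GAPDH on gel and 1200, 1036, 1058 and 805 CPM on plastic. The female groups did not overlap, and male gel 2 was the lowest male library of either surface. GAPDH fell in female cells, with -0.56 (SE 0.15, adjusted p = 0.0103), to 67.7% of the gel mean, and was not called in male cells at -0.38 (SE 0.15, adjusted p = 0.0663). Without male gel 2 the male value of GAPDH was -0.51 and called (adjusted p = 0.00908), and it was called without female plastic 4 (-0.38, adjusted p = 0.0465), which enters only the shared spread. The difference between the sexes in the change of GAPDH was -0.18 (SE 0.21, adjusted p = 0.807). PGK1, the first enzyme of glycolysis to yield ATP and a classical HIF target, lies on the X chromosome (62187472 to 62210321). It stood at 378, 337, 329 and 455 CPM on gel and 418, 367, 396 and 413 CPM on plastic in male cells. In female cells PGK1 had 345, 342, 383 and 469 CPM on gel and 394, 420.0, 424 and 315 CPM on plastic. The surfaces overlapped, with changes of 0.09 (SE 0.13, adjusted p = 0.657) and 0.01 (SE 0.13, adjusted p = 0.955).

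PGAM1, which moves the phosphate group of phosphoglycerate, had 348 ± 62 and 291 ± 14.3 CPM on male gel and plastic and 342 ± 72.1 and 293 ± 24.8 CPM on female gel and plastic. It was not called, with -0.26 (SE 0.14) and -0.22 (SE 0.14). ENO1, the general enolase, went from 1426 ± 360.1 to 1221 ± 47 CPM in male and from 1615 ± 267 to 1237 ± 179 CPM in female cells and was not called, with -0.22 (SE 0.16, adjusted p = 0.335) and -0.39 (SE 0.16, adjusted p = 0.1). Without male gel 2 the female value of ENO1 was -0.39 and called (adjusted p = 0.0437). ENO2, the neuron-type enolase, had 2.2 to 3.61 CPM on male gel and 2.32 to 6.65 CPM on male plastic, a change of 0.67 (SE 0.28, adjusted p = 0.0881), and 0.56 (SE 0.27, adjusted p = 0.152) in female cells. It was called as higher in male cells without male plastic 1 (0.88, adjusted p = 0.0176). PKM, pyruvate kinase, had 1557 ± 243 and 1367 ± 54.6 CPM on male gel and plastic and 1737 ± 199 and 1472 ± 87.2 CPM on female gel and plastic. It was lower in 8 of 8 same-numbered pairs but not called, at -0.19 (SE 0.11, adjusted p = 0.232) and -0.24 (SE 0.11, adjusted p = 0.134).

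Lactate dehydrogenase interconverts pyruvate and lactate with A and B type subunits, of which the A type is a HIF target. LDHA stood at 864, 791, 687 and 1104 CPM on gel and 785, 625, 686 and 821 CPM on plastic in male cells. Female cells had 844, 776, 849.8 and 1038 CPM of LDHA on gel and 816, 829.5, 855 and 729.6 CPM on plastic. These ranges overlapped, and LDHA was not called, at -0.24 (SE 0.14, adjusted p = 0.214) and -0.12 (SE 0.14, adjusted p = 0.573). LDHB had 267, 346, 319 and 271 CPM on gel and 193, 207, 211 and 181 CPM on plastic in male cells. In female cells LDHB stood at 318, 309, 330.3 and 275 CPM on gel and 245, 192, 197 and 193 CPM on plastic. LDHB fell with no overlap, with log2 changes of -0.60 (SE 0.11, adjusted p = 0.000629) and -0.58 (SE 0.11, adjusted p = 0.00093), to 65.9% and 67.1% of the gel mean. RefSeq gives the symbol LDHB to 2 loci of this genome while the table has a single row, so reads of the 2 cannot be told apart and no position is given. The difference between LDHA and LDHB was not tested.

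Of the 3 genes grouped here as regulators of flux, 2 were higher in male cells and 1 in female cells. PDK1, a kinase that shuts off pyruvate dehydrogenase and thereby keeps pyruvate from entering the citric acid cycle, is a standard HIF target. It stood at 93, 110.1, 83.8 and 104 CPM on gel and 174, 169.9, 157 and 177 CPM on plastic in male cells. Female cells had 85.4, 86.6, 80.6 and 92.9 CPM of PDK1 on gel and 128, 185, 169 and 182 CPM on plastic. Every plastic library was above every gel library, with female plastic 1 the lowest on plastic. PDK1 (chromosome 15, 78608394 to 78650958) rose by 0.80 (SE 0.11, adjusted p = 8.25e-05) and 0.94 (SE 0.11, adjusted p = 2e-05), to 174% and 192% of the gel mean. PFKFB3 and PFKFB4 make and break fructose 2,6-bisphosphate, the activator of phosphofructokinase. PFKFB4 (chromosome 13, 31212553 to 31259785) rose in male cells from 4.51 ± 0.828 to 7.26 ± 0.967 CPM, 0.68 (SE 0.17, adjusted p = 0.00604), with no overlap. In female cells PFKFB4 was not called, with 5.55 ± 0.718 and 6.4 ± 0.629 CPM and 0.20 (SE 0.16, adjusted p = 0.403). The difference between the sexes in the change of PFKFB4 was -0.48 (SE 0.23, unadjusted p = 0.0553, adjusted p = 0.767). PFKFB3 was not called in either sex, with means of 31.5 to 36.1 CPM over the 4 groups and changes of -0.13 (SE 0.18) and -0.13 (SE 0.18).

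Of the carriers, SLC2A1 (the basal glucose carrier and a HIF target) stood at 149, 95.4, 136 and 199 CPM on gel and 143, 134, 154 and 161 CPM on plastic in male cells. Female cells had 103, 147, 142 and 194 CPM of SLC2A1 on gel and 122, 167, 190.3 and 144 CPM on plastic. The surfaces overlapped widely, at 0.03 (SE 0.20, adjusted p = 0.928) and 0.09 (SE 0.20, adjusted p = 0.79). SLC2A3, a high-affinity glucose carrier, had 220.0, 226, 216 and 353 CPM on gel and 141, 138, 193 and 178 CPM on plastic in male cells. In female cells SLC2A3 stood at 284, 213, 208 and 340.1 CPM on gel and 208, 169.8, 199 and 175 CPM on plastic. There was no overlap in either sex, though female gel 3 and female plastic 1 were nearly level. SLC2A3 fell in male cells, with -0.64 (SE 0.18, adjusted p = 0.0163), and was not called in female cells, with -0.48 (SE 0.18, adjusted p = 0.0707), where blocking on the replicate number led to a call (-0.45, adjusted p = 0.042). In male cells SLC2A3 missed the threshold when the samples lacked male gel 4 (-0.44, adjusted p = 0.0613), male plastic 1 (-0.58, adjusted p = 0.0544) or male plastic 2 (-0.57, adjusted p = 0.0545). The female value was called without female gel 3 (-0.57, adjusted p = 0.0472) or male gel 4 (-0.48, adjusted p = 0.0329). SLC16A1 and SLC16A3, carriers of lactate and pyruvate, were not called in either sex. SLC16A1 had 97.8 to 143 CPM on male gel, 95.5 to 111 CPM on male plastic, 79.6 to 103 CPM on female gel and 98 to 116 CPM on female plastic, as ranges over 4 libraries. SLC16A3, a HIF target that exports lactate, ran from 23.5 to 97.2 CPM within male gel alone, and its changes were 0.19 (SE 0.33) and -0.23 (SE 0.33).

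**Figure D3:**
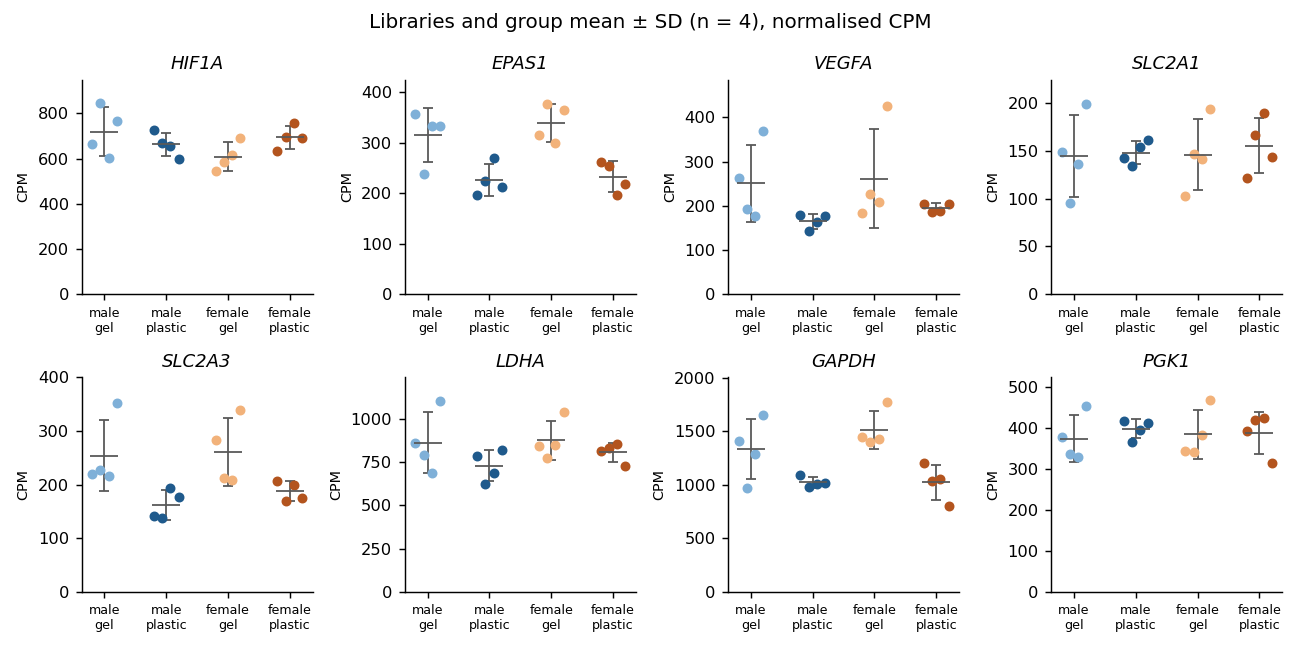
CPM (y axis, from 0) of the HIF alpha subunits, VEGFA, both glucose carriers and 3 glycolytic enzymes in each library (points, replicates 1 to 4 from left to right) with the group mean and SD (grey, n = 4). EPAS1 and SLC2A3 sit lower on plastic in each sex, EPAS1 with overlap in male cells, while HIF1A, SLC2A1 and PGK1 overlap between surfaces.

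The spread between libraries of one group, as the SD of log2 CPM pooled over the 4 groups, had a median of 0.21 over the 36 genes and of 0.26 over all tested genes. It was lowest for KDM3A (0.09), ALDOA (0.12) and HK1 (0.12), and highest for SLC16A3 (0.57), ADM (0.45) and ENO2 (0.41). ANGPTL4 and EGLN3, with the deepest falls, had a spread of 0.39 and 0.31.

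**Figure D4:**
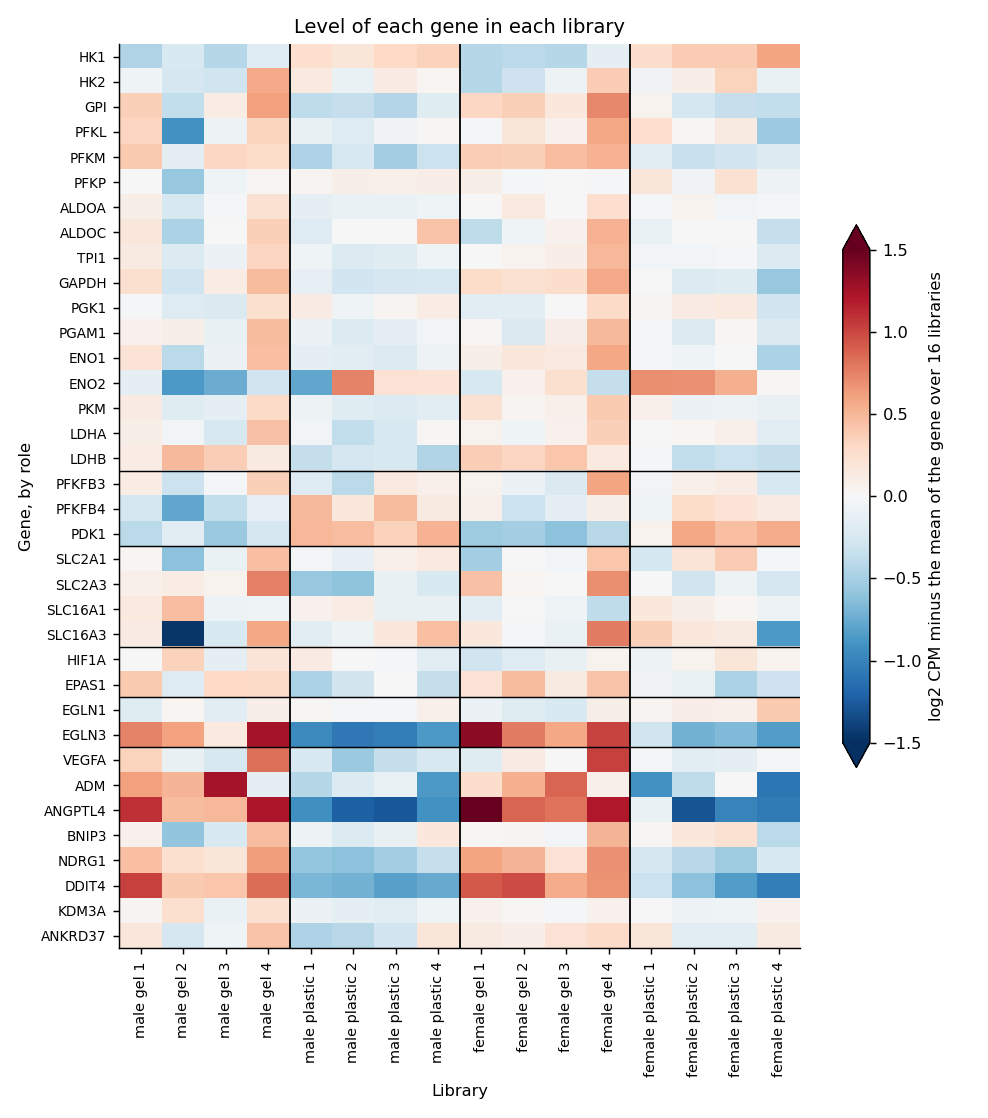
Level of each gene (rows, by role) in each library (columns), as log2 CPM minus the mean of the gene over the 16 libraries, with colours saturated at 1.5 on either side. EGLN3, ANGPTL4, NDRG1 and DDIT4 are red on gel and blue on plastic, PDK1 and HK1 the reverse, and male gel 4 and female gel 4 are red across most glycolytic enzymes.

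Female and male cells were compared on each surface and in their response to it. None of the 36 genes was called in any of these comparisons, where edgeR called 0.103% of all genes on gel, 0.124% on plastic and 0% for the difference of the changes. An unadjusted p under 0.05 was reached by 2 members on gel, 0 on plastic and 0 for the difference, and DESeq2 and limma-voom gave 0 calls each as well. The 2 genes on gel were SLC16A1 at -0.28 (unadjusted p = 0.0306, adjusted p = 0.852) and HIF1A at -0.24 (unadjusted p = 0.0467, adjusted p = 0.852), female minus male. No member separated the sexes on gel, where 2.03% of all genes did in either direction. On plastic the smallest p-values were those of EGLN3 (unadjusted p = 0.102) and EGLN1 (unadjusted p = 0.159). On plastic, ALDOA, EGLN3 and VEGFA were higher in every female than in every male library, and 0 members were lower in every female library. They are 8.33% of the members, beside 1.27% of all genes, a share that counts the higher direction only. Their log2 differences of 0.09, 0.36 and 0.25 were not called. These misses do not show that the sexes are alike. For the difference of the surface changes, the smallest p-values were those of PFKFB4, given above, and SLC16A1. SLC16A1 was lower on plastic in 4 of 4 male pairs, with -0.14 (SE 0.12), and, with TMM scaling, higher in 4 of 4 female pairs, with 0.20 (SE 0.12) (-0.04 with total counts), a difference of 0.34 (SE 0.17, unadjusted p = 0.0573, adjusted p = 0.767). For the surface change with TMM scaling, 32 of 36 members had the same sign in both sexes, a count that was not set beside all genes.

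Further genes of the same pathways were read from lists built by function, with earlier results of these data known. Of 42 tested HIF targets outside the 36 (44 listed), 17 were lower and 5 higher on plastic in male cells, and 16 lower and 6 higher in female cells. The lower calls were 40.5% and 38.1% of the list, beside the 12.9% and 11.3% of all genes given above, and the list medians were -0.29 and -0.27. The higher calls were 11.9% and 14.3% of the list, near the 12.9% and 12.7% of all genes. HMOX1, the haem-degrading enzyme that oxidative stress also induces, fell with log2 changes of -1.68 (SE 0.18, adjusted p = 5.98e-06) in male and -1.90 (SE 0.18, adjusted p = 2.11e-06) in female cells. BHLHE41, a transcriptional repressor of the circadian clock, fell with log2 changes of -1.96 (SE 0.27, adjusted p = 6.27e-05) and -1.76 (SE 0.27, adjusted p = 0.000168), and MXI1, an antagonist of MYC, with -0.67 (SE 0.09, adjusted p = 7.31e-05) and -0.62 (SE 0.09, adjusted p = 0.00016). HILPDA, an inhibitor of fat breakdown on lipid droplets, fell with log2 changes of -1.17 (SE 0.22, adjusted p = 0.000893) and -1.44 (SE 0.22, adjusted p = 0.000166). CA12, a carbonic anhydrase picked after its values were seen, fell from 12.6 ± 5.82 to 0.941 ± 0.153 CPM in male and from 12.4 ± 11.4 to 1.35 ± 1.21 CPM in female cells. Among those that rose, WSB1, part of a ubiquitin ligase, rose by 0.73 (SE 0.09, adjusted p = 2.15e-05) and 0.78 (SE 0.09, adjusted p = 1.25e-05). The collagen-modifying enzymes LOX and PLOD2 rose as well, LOX by 0.65 (SE 0.11, adjusted p = 0.000371) and 0.65 (SE 0.11, adjusted p = 0.000374) and PLOD2 by 0.47 (SE 0.14, adjusted p = 0.0198) and 0.92 (SE 0.14, adjusted p = 0.00016).

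**Figure D5:**
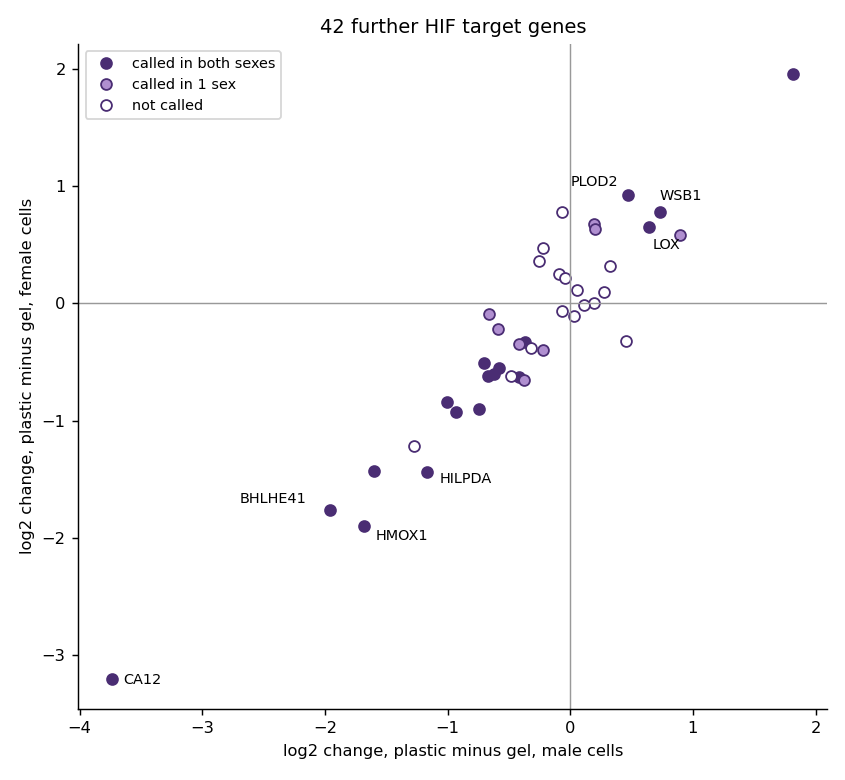
Log2 change between plastic and gel in male (x axis) and female (y axis) cells of the 42 tested HIF targets outside the 36 genes, each point a gene, filled dark where called in both sexes. Most called genes lie in the lower left, with CA12 lowest, and WSB1, LOX and PLOD2 lie in the upper right.

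Of 15 tested regulators of oxygen sensing, 3 were lower and 0 higher in male cells, and 0 lower and 2 higher in female cells. The 20% lower in male and 13.3% higher in female cells stand beside 12.9% and 12.7% of all genes. The male calls were the ubiquitin ligase SIAH1 with -0.46 (SE 0.12, adjusted p = 0.00859), the transcriptional co-regulator CITED2 with -0.59 (SE 0.18, adjusted p = 0.025) and OS9 with -0.34 (SE 0.12, adjusted p = 0.0412). The female calls were ELOC, a subunit of the von Hippel-Lindau ubiquitin ligase, with 0.57 (SE 0.17, adjusted p = 0.0212) and the acetyltransferase EP300 with 0.27 (SE 0.08, adjusted p = 0.0203). For the difference of the surface changes between the sexes, edgeR called 0 of the 15, and 0 had an unadjusted p under 0.05. Further glycolysis and pyruvate genes had 4 higher and 3 lower of 39 in male cells and 4 higher and 4 lower in female cells. These shares, 10.3% and 7.69% in male and 10.3% and 10.3% in female cells, were below those of all genes, 12.9% and 12.9% in male and 12.7% and 11.3% in female cells. PYGL, which frees glucose from glycogen, rose by 0.38 (SE 0.08, adjusted p = 0.00209) and 0.53 (SE 0.08, adjusted p = 0.000139). BPGM, which makes 2,3-bisphosphoglycerate, rose by 1.07 (SE 0.20, adjusted p = 0.000968) and 1.07 (SE 0.20, adjusted p = 0.000934), and PFKFB2, a relative of PFKFB3, by 0.56 (SE 0.12, adjusted p = 0.00221) and 0.67 (SE 0.12, adjusted p = 0.000593). ADPGK, an ADP-dependent glucokinase, fell with log2 changes of -0.49 (SE 0.10, adjusted p = 0.00239) and -0.63 (SE 0.10, adjusted p = 0.000294), and BSG (basigin), the chaperone of the lactate carriers, with -0.25 (SE 0.09, adjusted p = 0.0431) and -0.37 (SE 0.09, adjusted p = 0.00439).

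The pentose phosphate pathway branches off at glucose 6-phosphate and yields NADPH and ribose. Of its 8 genes, 3 were lower in male and 4 in female cells, with 0 higher in each. The lower calls were 37.5% and 50% of the list, beside 12.9% and 11.3% of all genes. PGD, a dehydrogenase of this pathway, fell with log2 changes of -0.40 (SE 0.09, adjusted p = 0.00375) and -0.67 (SE 0.09, adjusted p = 5.66e-05), and RPIA, a ribose phosphate isomerase, fell with -0.78 (SE 0.15, adjusted p = 0.00114) and -0.68 (SE 0.15, adjusted p = 0.00348). PPAR targets, listed because ANGPTL4 is one of them, had 3 higher and 1 lower of 12 tested in male cells and 2 higher and 2 lower in female cells. Their shares were 25% higher and 8.33% lower in male and 16.7% each in female cells, beside 12.9% and 12.9% of all genes in male and 12.7% and 11.3% in female cells. CPT1B, a carrier step of fatty acid burning, rose by 2.09 (SE 0.45, adjusted p = 0.00278) and 1.63 (SE 0.45, adjusted p = 0.0151), while PLIN2, a coat protein of lipid droplets, fell in female cells, with -0.71 (SE 0.19, adjusted p = 0.012), and was not called in male cells, with -0.52 (SE 0.19, adjusted p = 0.0542).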

How the data were processed

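Polyadenylated RNA was sequenced from 16 cultures, and the authors deposited 1 table of raw counts per gene. Per the submitters' processing notes, the tools were FastQC 0.11.5, Trimmomatic 0.36, HISAT2 2.1.0, SAMtools 1.3.1 and featureCounts, with the genome Sscrofa11.1. How strand and multiply mapped reads were counted is not given in the sources used here. Of 29576 rows, 24 had no gene name (0.169% of counts) and were dropped.

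Groups came from the sample titles. edgeR 4.0.16 in R 4.3.3 fitted 4 group means to all 16 libraries with TMM factors after filterByExpr, which kept 14530 genes. Quasi-likelihood F tests were adjusted by Benjamini-Hochberg, with 0.05 as the threshold. The SE is the log2 change divided by the square root of F. The script was tested on simulated data. Within groups, 24 pairs of libraries differed beyond counting noise (chi-square per degree of freedom 9.93 to 81.9). CPM values are not divided by gene length, so levels are not compared between genes.

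Libraries with the same replicate number deviated together (correlations 0.126 to 0.489, and each of 16 libraries had its highest correlation with its own number), so the numbers were taken to pair the samples, and a fit blocked on the replicate number was an alternative. The labels do not say that they mark an animal. Coordinates are from RefSeq (Sscrofa11.1), where 35 of 36 members matched 1 entry.

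The members and lists were chosen with earlier results of these data known. Values of every library are given for members called the same way in both sexes with no overlap and at least 5 CPM in the higher group (at most 12), and for HIF1A, EPAS1, SLC2A1, LDHA, GAPDH, PGK1, VEGFA and PDK1. Values of every library for ADM and SLC2A3 were added after their values were seen. From each further list, up to 3 genes per direction with the lowest adjusted p in each sex are named, except for some that are not reported here. Alternatives were DESeq2 1.42.0, limma-voom 3.58.1, other scalings and filters, glmTreat against a fold of 1.2, only the 8 libraries compared, and each library left out.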

Additional observations from a re-analysis of the deposited data

Results flagged for a closer look

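In 8 of the 144 sets of 4 libraries, 1 library stood far from the other 3 of its group, and chance gives about 1 in 20. Female gel 4 was such a library for 4 genes, above the others each time. HK1 was at 329 CPM there against 271.4 to 279.3 CPM, GAPDH at 1774 against 1400 to 1449 CPM, ENO1 at 2012 against 1440 to 1518 CPM and BNIP3 at 179 against 122.4 to 129.3 CPM. Male gel 4 had 353 CPM of SLC2A3 against 215.9 to 226.3 CPM. Female plastic 4 had 274 CPM of TPI1 against 306.2 to 312.8 CPM, and 91.2 CPM of EGLN1 against 70.97 to 74.27 CPM. Female plastic 1 had 245 CPM of LDHB against 191.7 to 197.1 CPM.

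The surface change of SLC16A1 had, with TMM scaling, opposite signs in all male and all female pairs, but the female change went from 0.20 to -0.04 with total counts, so its direction in female cells depends on the scale. The difference, female minus male, was 0.34, and its test by edgeR gave an unadjusted p = 0.0573 and an adjusted p = 0.767. Under a replicate block it was 0.33 (unadjusted p = 0.0222, adjusted p = 0.611).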

How the results depend on the processing

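Of the 25 surface calls of members, 17 held under each of up to 27 alternatives, and no member changed direction as a called value. Scaling by total counts, chosen after seeing the data, moved the members lower on plastic from 10 to 22 in male and from 10 to 18 in female cells, and the genes called to 5951 and 5402. With glmTreat against a fold of 1.2, 2189 of 3748 genes were called in male and 2024 of 3476 in female cells, and the members lower were 7 in each sex. GPI and EPAS1 in each sex, SLC2A3 in male and GAPDH in female cells lost their calls there (adjusted p from 0.0562 to 0.105), and GPI in male cells lost it with only the 8 libraries compared (adjusted p = 0.0568). A fit blocked on the replicate number gave 11 lower and 3 higher members in each sex and changed no other call than those of VEGFA, SLC2A3 and EGLN1 given above. Leaving out 1 library at a time gave 7 to 11 lower and 3 to 4 higher members in male cells, 9 to 11 lower and 2 to 3 higher in female cells, and 0 in the sex comparisons and in the difference. Leaving out male gel 2 with female plastic 4, or male gel 4 with female gel 4, was also chosen after seeing the data. The cause of these shifts was not tested. Of the surface results not called, 22 were called under some alternative and 25 under none. Among the 22, ALDOA, TPI1, PGAM1 and PKM in each sex were called only with total counts. The same held for ENO1, LDHA, SLC16A1, ANKRD37 and HIF1A in male cells and for VEGFA and KDM3A in female cells. Depth was lowest in male gel 2.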
